A study of Mus musculus with 294 samples.

Results

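Transcripts of 5 Eph receptors (Epha3, Epha4, Epha7, Ephb2 and Ephb3) and of 3 ephrin ligands (Efna5, Efnb1 and Efnb2) were followed in single neural-crest-derived cells of the embryonic mouse heart. The 8 genes were taken by name and make up 8 of the 15124 genes of the deposited raw count table. All 294 cells came from the outflow tract, around the aorticopulmonary septum, of Wnt1-Cre; R26-EYFP mouse embryos at E11.5, E12.5, E14.5 or E17.5. They were collected as EYFP-positive by fluorescence-activated sorting and loaded on a Fluidigm C1 microfluidic chip made for cells of medium size. Wnt1-Cre acts in the neural crest of the dorsal neural tube, and the recombined R26-EYFP reporter stays on in every descendant, so the label marks ancestry and not the present state of a cell. Every cell carried the same 2 alleles, no group of another genotype or treatment was labelled, and a chip for 1 size class leaves out smaller and larger cells.

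The labels tie no cell to an embryo, an age or a chip, so the cells were treated as 1 sample and no test between groups of cells was made. Cell names begin with a digit from 1 to 7 that no label explains. It splits the cells into 7 name series of 34 to 58 cells, which serve below as strata and not as groups of the study. Sequencing gave between 34046 and 3033857 reads per cell on genes. Levels are these counts scaled to a cell total of 1000000 reads (CPM), a gene was counted as detected at 10 CPM or more, and shares carry exact Clopper-Pearson 95% intervals that cover counting error only. The protocol in the labels names no molecular identifiers, so reads of a cell are not independent molecules. Detection at 10 CPM corresponds to less than 1 read in the shallowest cells, and 25 cells had fewer than 250000 reads.

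All 9 genes of a mesenchyme and endocardial cushion list, among them Postn, Col3a1 and Sox9, were detected in 58.2% to 99.7% of cells, a mesenchymal profile. The 9 smooth muscle genes were detected in 11.6% (Myh11) to 78.9% (Tpm2) of cells. Of the other lists, glial markers lay between 1.02% and 12.2%, cardiomyocyte genes between 1.02% and 19.4% (Tnnt2) and neuron genes between 1.02% and 19.7% (Tubb3), and the melanocyte gene Tyr passed 10 CPM in 0 cells. The epicardial genes Aldh1a2 and Wt1 were detected in 1.70% and 5.44% of cells, and Tbx18 in 51.7%. Of 3 endothelial genes measured, Pecam1 was detected in 7.48%, Kdr in 2.38% and Tek in 29.6% of cells.

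Some libraries stood apart. Name series 1 had a median of 7718 genes with a read per cell, against medians of 3123 to 4676.5 in the other 6 series, and all of its 58 cells had Acta2 at 10 CPM or more (lowest 40.2 CPM, mean 2357 CPM). Epha3 had a read in 87.9% of the cells of series 1 and 10 CPM in 29.3%. In addition, 7 cells resembled another cell far more than their series did: 5 cells of series 1 reached a best Pearson correlation of log counts between 0.87 and 0.94 (median over pairs of that series 0.58), and 2 cells of series 3 correlated with each other at 0.91 (median over pairs 0.37). Whether these 7 look-alike libraries, found after the data were examined, are separate cells was not tested. The shares, the Efna5 and Efnb2 pair, the Efnb2 correlation and the split by Epha7 and Efnb2 are given with and without them. Other results, among them the detection shares by Acta2 level and by glial markers, are given with them only.

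Eph receptors form the largest family of receptor tyrosine kinases, and ephrins are membrane-bound ligands, so signalling needs contact between cells. A-type ephrins are held by a lipid anchor and mostly bind EphA receptors, B-type ephrins span the membrane and mostly bind EphB receptors, and EphA4 and EphB2 also bind across the classes. Both the receptor cell and the ligand cell can respond, often by repulsion or by sorting into separate domains, and ephrin-B2 is known for its role in arterial vessels and in the smooth muscle of their walls.

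The stretches of genome just upstream of Efnb2, Efna5 and Epha7 are shown because the results below turn on these genes: Efnb2 and Efna5 were found together, and Epha7 ran opposite to Efnb2 in its relation to Acta2. Each is the 250 bases before the annotated start (RefSeq, GRCm38.p6), on the gene's own strand, at chr8:8661243-8661492 (minus strand) for Efnb2, chr17:62881318-62881567 (minus strand) for Efna5 and chr4:28812881-28813130 (plus strand) for Epha7.
Efnb2: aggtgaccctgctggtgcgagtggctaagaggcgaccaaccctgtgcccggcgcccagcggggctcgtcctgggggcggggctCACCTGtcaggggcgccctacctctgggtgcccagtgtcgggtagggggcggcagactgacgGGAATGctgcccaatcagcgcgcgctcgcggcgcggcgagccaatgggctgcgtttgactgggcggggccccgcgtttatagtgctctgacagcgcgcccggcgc
Efna5: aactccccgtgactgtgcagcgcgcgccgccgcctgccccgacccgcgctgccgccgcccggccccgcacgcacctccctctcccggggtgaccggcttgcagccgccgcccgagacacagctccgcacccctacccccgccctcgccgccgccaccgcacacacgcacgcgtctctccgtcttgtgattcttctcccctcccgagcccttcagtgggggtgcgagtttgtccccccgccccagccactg
Epha7: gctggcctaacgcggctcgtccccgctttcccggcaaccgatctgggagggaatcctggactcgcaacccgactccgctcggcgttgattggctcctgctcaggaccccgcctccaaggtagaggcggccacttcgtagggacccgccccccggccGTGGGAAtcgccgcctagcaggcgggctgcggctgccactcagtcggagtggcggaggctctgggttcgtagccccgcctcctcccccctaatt
Capitals mark the matches to 5 motifs searched on both strands. In Efnb2 they are an E-box (CANNTG) and, nearer to the start, a TEAD-type GGAATG. In Epha7 they are an RBPJ-type GTGGGAA, 94 bases before the start. Of all 32851 windows of the same length, 66.2% hold CANNTG, 12.6% hold GGAATG and 5.42% hold GTGGGAA. The CArG box of serum response factor (1.47% of windows) and the AP-1 motif TGANTCA (6.75%) had no match in the windows of any of the 8 genes, which says only that these letters are not there. Only exact matches were counted, and the window of the smooth muscle gene Acta2, searched the same way, had 0 CArG matches too. The absence therefore says nothing about sites that differ from the exact motif. The 3 windows are rich in CG dinucleotides, with 27 in Efnb2, 32 in Efna5 and 25 in Epha7, against a median of 6 over all windows.

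The 8 genes differed widely in how many cells held them. At 10 CPM, 5 of the 8 genes were detected in at least 20% of cells, beside 41.7% of all 15124 genes. In order of their shares, Epha7 stood clear of Efna5, with intervals that did not overlap, and Efna5 stood clear of Efnb2. Efnb2, Epha3 and Efnb1 overlapped, as did Ephb3 with Epha4, and Epha4 with Ephb2. Leaving out the 7 look-alike cells moved no share by more than its interval.

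Among the receptors, Epha7 (chr4:28813131-28967499 on GRCm38, plus strand), a receptor known for repulsive guidance of axons, was the most widespread. Its level ran from 0 to a median of 119.9 CPM and a highest cell of 2521 CPM, and 70.1% of cells (64.5% to 75.2%) had 10 CPM or more. Of all cells, 52.4% had at least 100 CPM of it. Per kilobase of exon, its mean level was 30.7 CPM, the highest of the 5 receptors.

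Epha3 (chr16:63543534-63864175, minus strand), which is known from heart valve and septum formation, was present in fewer cells, and a few of them held much of its signal. It was at 0 in the lowest and the median cell and at 1814 CPM in the highest, and 28.6% of cells (23.5% to 34.1%) had 10 CPM or more. The 5 highest cells held 36.9% of its summed CPM, against 13.0% for Epha7.

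Epha4 (chr1:77367185-77515088, minus strand), which binds ephrins of both classes, was detected in 12.2% of cells (8.73% to 16.5%). Its median was 0, its highest cell had 927.5 CPM, and the 5 highest cells held 47.3% of its summed CPM. A few cells thus held much of its signal. Detection was most frequent in series 1, with 10 CPM in 25.9% and a read in 70.7% of cells. The other series had 10 CPM in 5.26% to 13.6% of cells, and without series 1 the share over all cells was 8.90%.

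Ephb2 and Ephb3 were sparse. Ephb3 (chr16:21204755-21223305, plus strand) was detected in 14.6% of cells (10.8% to 19.2%), with a median of 0 and a highest cell of 846.3 CPM. Ephb2 (chr4:136647539-136835988, minus strand) was detected in 6.80% of cells (4.204% to 10.3%), and its highest cell had 229.5 CPM. Both are receptors for B-type ephrins. Per kilobase of exon the mean level was 3.40 CPM for Ephb3 and 0.362 CPM for Ephb2.

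Among the ligands, Efna5 (chr17:62604184-62881317, minus strand), the lipid-anchored ligand of the EphA receptors, was detected in 54.1% of cells (48.2% to 59.9%). Its level ran from 0 through a median of 19.2 CPM to 1967 CPM. Per kilobase of exon its mean level of 30.5 CPM was close to the 30.7 CPM of Epha7, so the most widespread receptor and the most widespread ligand, which bind each other, had similar mean levels on this scale.

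Efnb2 (chr8:8617434-8661242, minus strand), the transmembrane ligand of arterial vessels, was at 0 CPM in the median cell and at 1025 CPM in the highest, with 31.3% of cells (26.03% to 36.9%) at 10 CPM or more and 20.4% at 100 CPM or more. Of the cells with a read of it, 27 lay under 10 CPM, 32 between 10 and 100 CPM and 60 at 100 CPM or more. Efnb1 (chrX:99136130-99148991, plus strand), the X-linked B-type ligand, was detected in 24.1% of cells (19.4% to 29.5%) and was weaker. Its highest cell had 543.9 CPM, and 6.46% of cells had 100 CPM or more. In the cells that held them at 10 CPM, the median was 153.5 CPM for Efnb2 and 50.4 CPM for Efnb1.

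**Figure D1:**
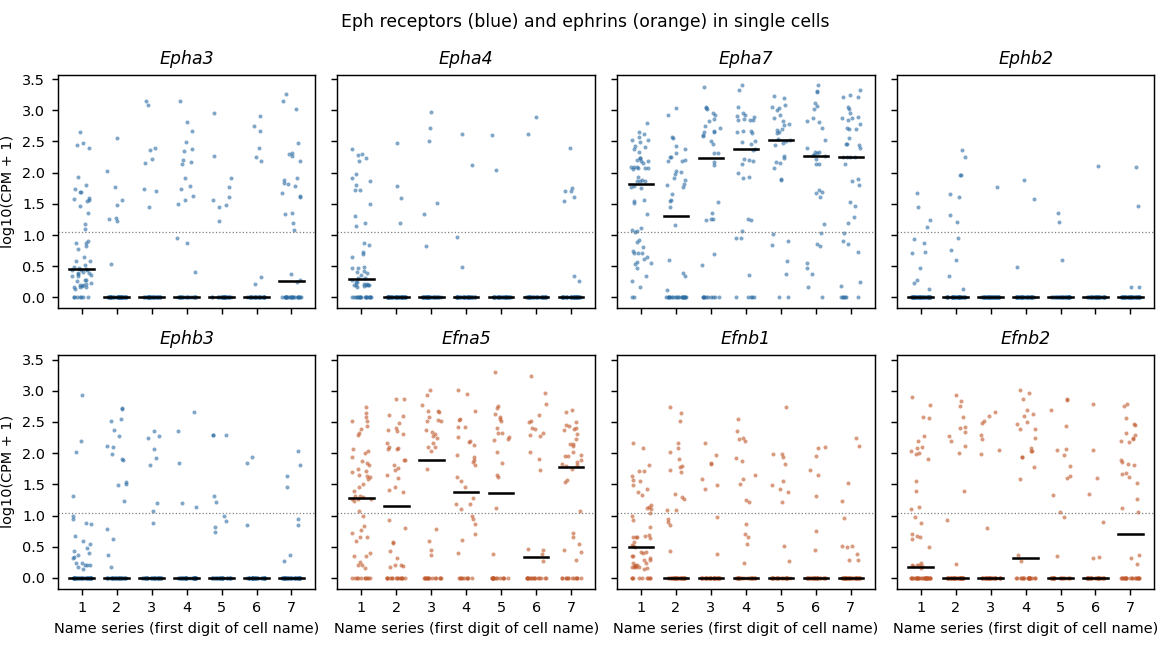
Level of each gene in each of the 294 cells, as log10(CPM + 1), by name series; bars are medians and the dotted line is 10 CPM. Epha7 and Efna5 fill the range in every series, while Epha4, Ephb2 and Ephb3 lie at 0 in most cells with a few high ones.

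Levels also differed between name series. The pooled level of a series is the summed reads of a gene over the summed reads of all its cells. Among the 7 whose mean was at least 10 CPM, 5 differed at least 3 times between the highest and the lowest series, with 10 CPM added to both, beside 51.3% of 9562 genes. The median ratio was 3.38 over the 7 and 3.04 over all genes, so these genes varied about as much as others.

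For Epha7, series 1 to 7 had 116.7, 96.5, 347.5, 437.5, 455.3, 522.2 and 396.1 CPM. Series 1 and 2 were thus the low ones and the other 5 lay together well above them, a ratio of 4.997 between the extremes. Efna5 followed with a smaller span, from 75.1 CPM in series 1 and 79.3 CPM in series 2 to 156.98 CPM in series 5, a ratio of 1.96. Detection shares showed less of this than levels: the share of cells with Epha7 was 69.0% in series 1, 52.1% in series 2 and 68.4% to 79.4% in the others.

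Epha3 was lowest in series 2 (14.6 CPM) and series 5 (26.4 CPM) and highest in series 3 (117.1 CPM) and series 7 (116.8 CPM). Its share of cells ranged from 16.7% in series 2 to 45.5% in series 7. The 5 highest cells of each series held 73.0% or more of its summed CPM there, so few cells set these pooled levels. Epha4 ranged from 6.75 CPM in series 5 to 42.9 CPM in series 3, where the 5 highest cells held 99.7% of it.

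Ephb2 and Ephb3 were highest in series 2. Ephb3 reached 47.2 CPM there and was detected in 31.2% of its cells, against 3.70 to 25.5 CPM and 5.88% to 21.1% elsewhere. Without series 2 the ratio between extremes was 2.59 in place of 4.17. Ephb2 had 13.6 CPM in series 2 and 0.823 to 5.48 CPM elsewhere, and its mean was too low to be counted above.

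Efnb2 was highest in series 4 (130.3 CPM, 47.4% of cells) and series 7 (94.0 CPM, 50.0% of cells) and lowest in series 6 (31.5 CPM, 11.8% of cells). Its ratio of 3.38 rested on these extremes, being 2.51 without series 4 and 2.39 without series 6. Efnb1 was highest in series 4 at 40.4 CPM, and its ratio of 2.76 was 1.55 without that series. With every cell thinned to 250000 reads, the Efnb2 shares were 48.6% for series 4, 46.5% for series 7 and 11.8% for series 6.

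**Figure D2:**
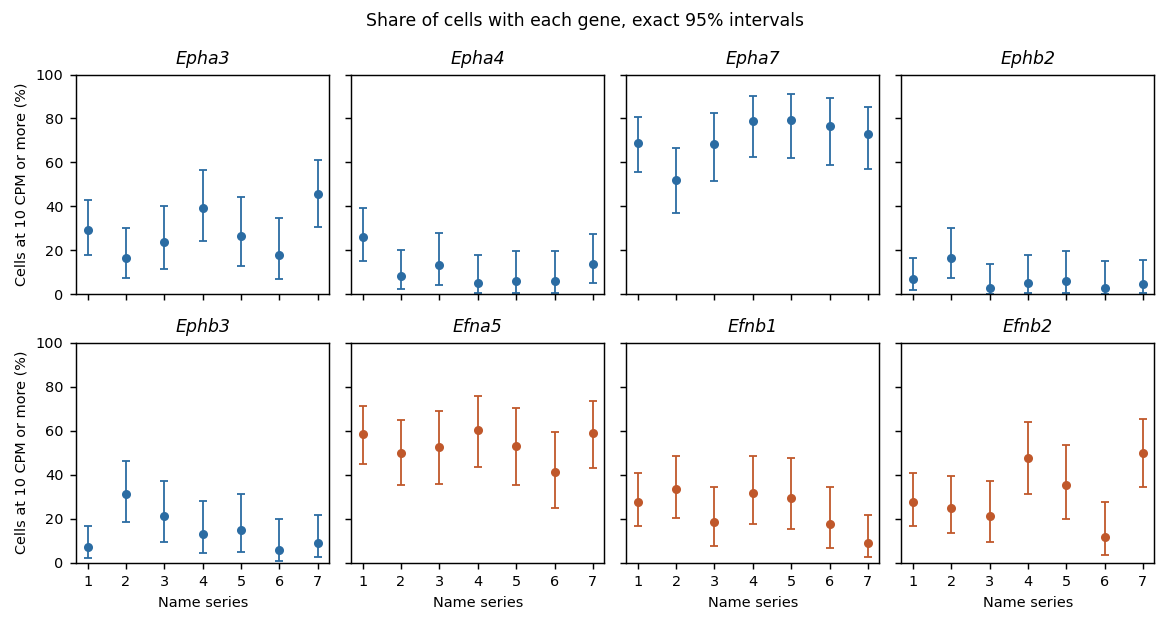
Share of cells (%) of each name series with 10 CPM or more of each gene, with exact 95% intervals. Efnb2 ranges from 11.8% in series 6 to 50.0% in series 7, and Ephb3 and Ephb2 peak in series 2.

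A receptor and a ligand of the 8 genes were both detected in 59.2% of cells (53.3% to 64.9%), where the product of the receptor and ligand shares within series gave 59.5%, so they met as often as separate detection would give. The share was 29.3% at 100 CPM. At 10 CPM, a receptor alone was detected in 26.2% of cells, a ligand alone in 10.2% and none of the 8 in 4.42%. By series, the share with both ran from 44.1% in series 6 to 78.9% in series 4. The share without the look-alike cells was 58.2%. A cell held a median of 2 of the 8 genes, and 1 cell held 7.

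Among the 5 receptors, Epha3, Epha4 or Epha7 was detected in 79.6% of cells and Ephb2 or Ephb3 in 19.0%, and 13.3% had both kinds. Series 2 differed in its balance, with one of the 3 EphA genes in 62.5% and Ephb2 or Ephb3 in 39.6% of its cells. On the ligand side, 33.3% of cells held Efna5 together with a B-type ephrin.

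Receptor and ligand of kinds that are known to bind each other were also met within single cells. One of the 3 EphA genes occurred with Efna5 in 41.8% of cells (36.1% to 47.7%), where the product within series gave 43.3%. Ephb2 or Ephb3 occurred with a B-type ephrin in 10.2% (6.99% to 14.2%), where the product gave 9.34%. Both products lay inside the intervals. Counting the cross-class pairs of Epha4 and Ephb2 too, at least 1 of 10 binding pairs was present in 50.0% of cells (44.1% to 55.9%).

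The exact combinations were diverse. The 294 cells showed 81 different combinations, of which 40 were seen in 1 cell each. Epha7 alone was the commonest, in 38 cells of all 7 series, followed by Epha7 with Efna5 in 24 cells of all 7 series. Epha7 with Efna5 and Efnb2 made up 16 cells and Efna5 with Efnb2 made up 14, each in 6 series.

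**Figure D3:**
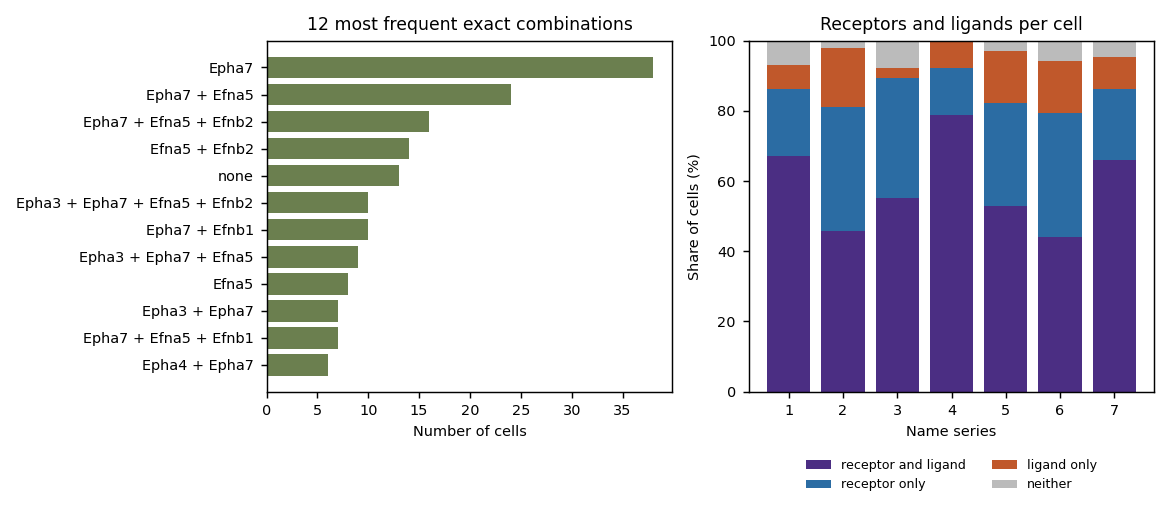
Left, number of cells in each of the 12 commonest exact combinations; right, share of cells (%) of each name series with a receptor and a ligand, 1 of them or neither. Epha7 alone leads with 38 cells, and the share with both runs from 44.1% in series 6 to 78.9% in series 4.

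Each pair of genes was compared with what separate detection would give, the product of both shares within each name series, summed over series. Of the 28 pairs, 18 were above the product, beside 70.2% of all pairs among 9858 genes detected in 5% to 75% of cells. The median difference was 0.53 percentage points over the 28 pairs and 0.50 over all, so the family as a whole was like other genes. Of the 10 binding pairs, 7 were above, with a median of 0.54 points.

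The pair that stood apart was Efna5 with Efnb2, 2 ligands of different classes. Both were detected in 24.1% of cells (19.4% to 29.5%) where the product gave 17.5%, a difference of 6.64 points, the largest of the 28. Its product lay outside the interval, as for no other of the 28 pairs. The share of all gene pairs outside their interval was not computed, and the interval leaves out the error of the product itself. The observed share was above the product in 6 of 7 series. Their levels correlated positively in all 7 series, with a median Spearman's rho of 0.32 and a range from 0.02 to 0.58 over 34 to 58 cells each. The 2 look-alike cells of series 3 both held the pair strongly, and without all 7 such cells the difference was 6.58 points, 23.7% against 17.1%. A threshold of 100 CPM gave 3.98 points.

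The pair lowest against its product was Epha7 with Efnb2. Both were in 19.4% of cells where the product gave 22.3%, and the share was below the product in 6 series and above it in 0. That product lay inside the interval (15.0% to 24.4%), and the difference of -2.91 points was -1.34 without series 2, where 1 of 12 Efnb2 cells held Epha7. The median rho was -0.19, and 2 of 7 series were positive. Epha7 with its binding partner Efna5 was found in 36.4% of cells, against a product of 37.99%, with a median rho of -0.13. The share of this pair was above the product in 5 series and below it in 2, and its rho was positive in 1 of 7.

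Acta2, which encodes smooth muscle alpha-actin and marks cells on the way to smooth muscle, was set against each gene within each name series. Acta2 was detected in 61.9% of cells, least often in series 6 (26.5%), and its median over all cells was 141.4 CPM. Of 8852 genes detected in at least 10% of cells, 4.23% correlated positively with Acta2 in all 7 series and 0.305% negatively in all 7. The median rho over all genes was 0.04, and 90% of them lay between -0.10 and 0.19. Of the 7 genes of the family in that set, 1 was positive in all 7 series and 1 was negative in all 7.

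The positive one was Efnb2. Its rho with Acta2 in series 1 to 7 was 0.28, 0.56, 0.34, 0.15, 0.10, 0.26 and 0.25. Every series was thus above 0 and above the median of all genes, with series 2 the highest, and 1.51% of the 8852 genes had a median of 0.26 or more. Series 3 gave 0.16 without its 2 look-alike cells, and the median was then 0.25. With total reads and genes detected held constant by partial rank correlation, all 7 stayed positive, with a median of 0.23.

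The negative one was Epha7. Its rho in series 1 to 7 was -0.18, -0.18, -0.35, -0.05, -0.06, -0.07 and -0.29, so that series 4, 5 and 6 were close to 0 and series 3 and 7 were the lowest. The median of -0.18 ranked it 52 from the bottom. Given total reads and genes detected, series 4 was at 0.01 and the other 6 were negative, with a median of -0.20. Among the cells with 0 of 9 glial genes, Epha7 was negative in 4 of 7 series, with a median of -0.31, and lay between 0.0016 and 0.031 in series 4, 5 and 6.

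Efna5 was positive in 6 of 7 series, with a median of 0.24, and series 4 was the exception at -0.19. A median at least as high was found for 2.101% of the genes. Epha4 was negative in 6 of 7 series, with a median of -0.13, and series 3 was the exception at 0.15. The other genes showed no common direction: the medians were -0.08 for Ephb3, -0.03 for Efnb1, -0.01 for Epha3 and -0.01 for Ephb2, and each had series on both sides of 0.

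**Figure D4:**
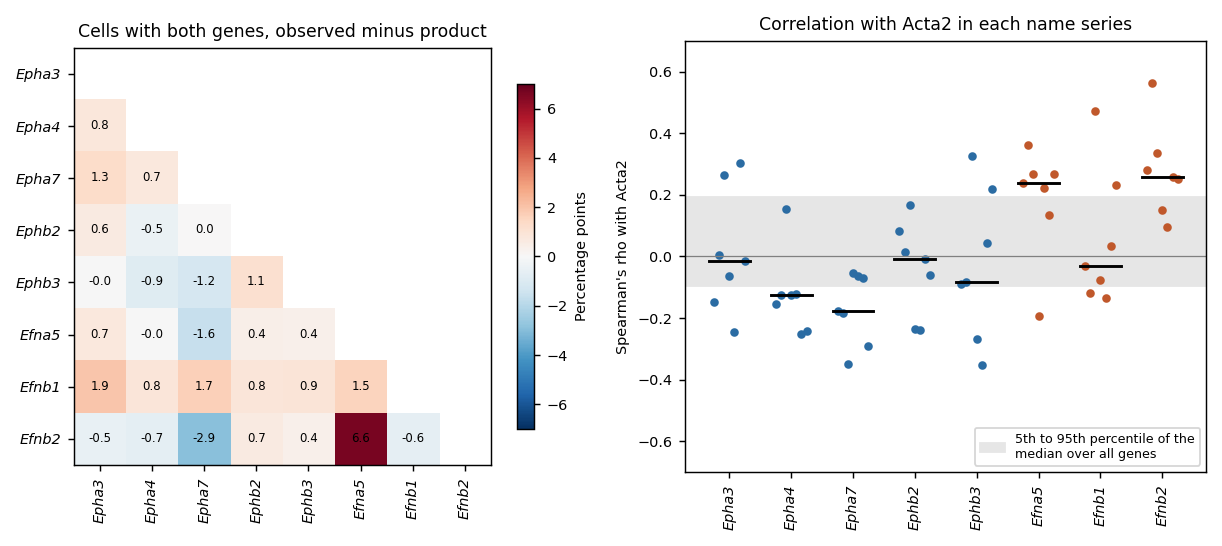
Left, share of cells with both genes minus the product of their shares, in percentage points; right, Spearman's rho with Acta2 in each of the 7 name series (points) and their median (bar), with the grey band from -0.10 to 0.19 holding the median of 90% of all genes. Efna5 with Efnb2 stands out at 6.64 points, and Efnb2 lies above 0 and Epha7 below 0 in all 7 series.

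Detection in cells with and without Acta2 gave the same picture in shares. Efnb2 was detected in 39.4% of the cells with Acta2 at 100 CPM or more, which were 52.7% of all cells, and in 20.5% of the cells with Acta2 under 10 CPM, which were 38.1%. It was higher in the Acta2 cells in all 6 series that had cells of both kinds, and most clearly in series 2, with 12 of 25 against 0 of 16 cells (0 of 16 allows a share of up to 20.6%). Against all cells under 100 CPM, which lets series 1 enter, it was higher in 5 of 7 series and lower in series 1 and 4.

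Efna5 was detected in 63.9% of the cells with Acta2 and 42.9% of those without, higher in 5 of 6 series. Epha7 was detected in 65.8% and 75.9%, lower in all 6 series, by between 1 and 21.1 points. Against all cells under 100 CPM, Epha7 was lower in 5 of 7 series, equal in series 7 and higher by 3.47 points in series 5. In level, the pooled Epha7 was 207.9 CPM in the cells with Acta2 and 466.4 CPM in those without, and it was lower with Acta2 in all 6 series. Series 1, low in Epha7, had cells with Acta2 only, so part of the pooled gap is a mix of series. Within series it ran from 404.7 against 531.1 CPM in series 5 to 158.3 against 508.9 CPM in series 3. The median cell did not follow in every series: in series 5 it had 467.3 CPM of Epha7 with Acta2 and 295.1 CPM without, and in series 6 363.8 CPM with Acta2 and 180.3 CPM without. Efnb1 was also more often detected with Acta2 (27.1% against 15.2%, higher in all 6). Against all cells under 100 CPM it was 27.1% against 20.9%, higher in 4 of 7 series and lower in 3, and its correlation within series had no common sign.

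The cells were then divided by Epha7 and Efnb2, a split chosen after seeing that these 2 genes had 1 sign against Acta2, so it shows the same relation in another form and adds no separate support. Those with Efnb2 and without Epha7 had the most Acta2. In these 35 cells Acta2 had a median of 1101 CPM, from 0 to 20395 CPM, and 85.7% of them (69.7% to 95.2%) reached 100 CPM. The other 3 classes were lower and overlapped. Cells with both genes reached 100 CPM in 54.4% (40.7% to 67.6%) with a median of 158.2 CPM, cells with Epha7 and without Efnb2 in 47.7% (39.4% to 56.0%) with a median of 60.3 CPM, and cells with neither in 43.4% (29.8% to 57.7%) with a median of 40.2 CPM.

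Because every cell of series 1 held Acta2, the shares were also taken without it. Cells with Efnb2 and without Epha7 then reached 100 CPM of Acta2 in 83.3% (65.3% to 94.4%, 30 cells), cells with both in 50.0%, cells with Epha7 and without Efnb2 in 37.5% and cells with neither in 30%. The medians without series 1 were 852.2 CPM, 93.6 CPM, 3.62 CPM and 4.89 CPM in that order. Without the 7 look-alike cells the 4 shares were 85.7%, 51.9%, 46.2% and 43.4%. Within each of the 7 series, cells with Efnb2 and without Epha7 reached 100 CPM more often than cells with Epha7 and without Efnb2, with 100% against 89.7% in series 1, 100% against 37.5% in series 2 and 50% against 20.8% in series 6, though the former numbered 2 to 11 a series. Series 2 gave 11 of the 35 cells, all with Acta2 at 100 CPM or more.

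**Figure D5:**
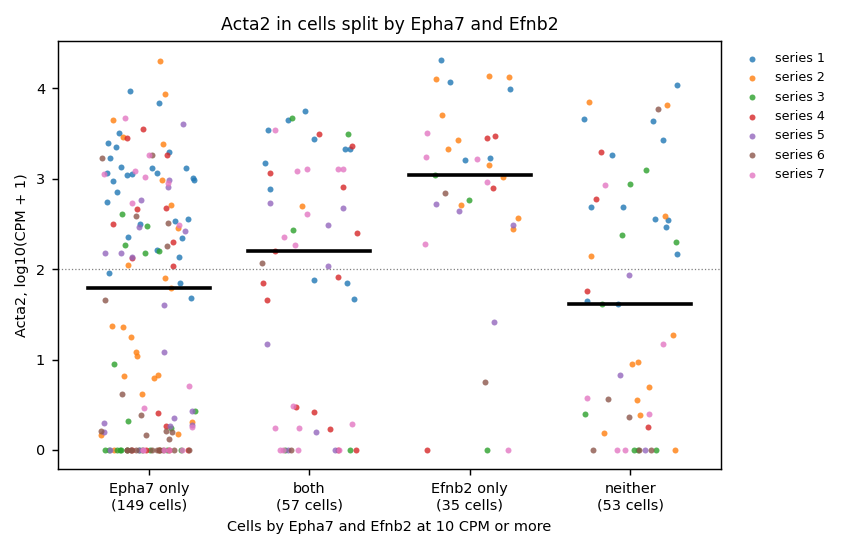
Acta2 in single cells as log10(CPM + 1), split by detection of Epha7 and Efnb2 at 10 CPM; bars are medians, colours are name series and the dotted line is 100 CPM. Cells with Efnb2 only have a median of 1101 CPM, and the other 3 classes have medians of 40.2 to 158.2 CPM.

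The genes were set against other readouts of cell state in the same way. Efnb2 was positive in all 7 series with 2 further smooth muscle genes, the actin-binding calponin Cnn1 (median rho 0.34, beside 3.68% of genes positive in all 7) and Tagln (0.17, beside 2.27%). It was negative in all 7 with the matrix gene Postn (-0.14, beside 0.508% negative in all 7). Efna5 was negative in all 7 series with 3 mesenchyme genes, Postn (-0.23), the proteoglycan gene Dcn (-0.21, beside 0.565% of genes) and the transcription factor gene Twist1 (-0.16, beside 0.779%). With the other mesenchyme genes the signs were mixed. Efna5 was positive with Sox9 in 3 of 7 series (median -0.06) and with Pdgfra in 1 of 7 (-0.09). Efnb2 was positive with Sox9 in 4 of 7 (0.02), Dcn in 2 of 7 (-0.05), Pdgfra in 1 of 7 (-0.21) and Twist1 in 1 of 7 (-0.23). Both ligands thus ran against Postn, though not against every mesenchyme gene, and Efnb2 ran with muscle genes.

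Epha7 was negative in all 7 series with the proliferation gene Mki67, at a median of -0.06 beside 0.576% of genes, and the values ranged from -0.44 to -0.03. It kept 1 sign with no other readout gene. With the muscle genes its medians were -0.11 for Tagln (positive in 1 of 7 series) and -0.06 for Cnn1 (2 of 7). With the others they were 0.17 for Pdgfra (5 of 7), 0.17 for Postn (4 of 7), 0.04 for Dcn (4 of 7), 0.04 for Twist1 (4 of 7) and 0.002 for Sox9 (4 of 7). Epha3 had 1 sign in all 7 series with none of the 8 readout genes. Its medians were 0.23 with Dcn (positive in 6 of 7 series), 0.20 with Mki67 (5 of 7), 0.15 with Pdgfra (6 of 7), 0.15 with Postn (4 of 7), 0.12 with Twist1 (5 of 7), -0.05 with Tagln (2 of 7), -0.09 with Sox9 (2 of 7) and -0.12 with Cnn1 (1 of 7). Against depth, the median rho of the 8 genes lay between -0.12 and 0.13 for total reads and between 0.01 and 0.20 for genes detected. Single series ran from -0.39 (Efnb1) to 0.41 (Epha3) for total reads. For genes detected they ran from -0.33 (Epha7) to 0.37 (Efnb2). None of the 8 genes kept 1 sign with either measure in all 7 series.

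For each of the 5 genes in at least 20% of cells, the genes with the most similar pattern were ranked by the median rho over the 7 series, among those positive in all 7. For Efnb2 these made up 1.91% of 8852 genes and were led by Fbln5 (0.45), Cxcl12 (0.39), Eln (0.38), Cnn1 (0.34) and Myl9 (0.34). Eln encodes elastin and Fbln5 a protein of elastic fibres. For Efna5 (1.72% of genes) they were Efnb2 itself (0.32), Fbln5 (0.32), Eln (0.31), Cxcl12 (0.31) and Hotairm1 (0.30), so 3 of 5 names were shared by the 2 ligands.

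The genes closest to Epha7 (1.51% of genes positive in all 7) were Tgfbi (0.27), Fgfr2 (0.26), Vcan (0.24), Guf1 (0.24) and Mmp11 (0.22). Vcan encodes versican, a proteoglycan of the cardiac cushions. For Epha3 (1.66%) they were Cnot4, Cgnl1, Nufip1, Laptm4b and Vars, all between 0.25 and 0.27. For Efnb1 (1.58%) Timeless led at 0.28, followed by Sh3glb2, Atad5, Akap12 and Orc2 down to 0.22, and Timeless, Atad5 and Orc2 are known from DNA replication. None of the 5 names of Epha7, Epha3 or Efnb1 was shared with the ligands Efna5 and Efnb2. How often the lists of any pair of genes share a name was not computed. Neither this nor the names shared by those ligands is therefore set against a background.

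The signalling partners of the family were widely present. Of a list of 45 genes of Eph and ephrin signalling, 43 were measured. Of these 43, 29 were detected in at least 20% of cells, beside 41.7% of all 15124 genes. In at least 50% of cells 12 were detected, and the share of all genes at that cut was not taken. The median share of the 43 was 26.9% of cells, against 14.6% over all genes. The 5 most widespread were the small GTPases Cdc42 (90.8%), Rhoa (85.7%) and Rac1 (84.7%), the kinase Rock1 (81.0%) and the scaffold Sdcbp (74.5%), which binds the tail of B-type ephrins.

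These partners did not run with Acta2 as a set. Of 37 in the Acta2 comparison, 2 were positive in all 7 series, Cxcl12 (median rho 0.24) and Kalrn (0.11), and 0 were negative in all 7. Beside them, 4.23% of 8852 genes were positive and 0.305% negative in all 7. Their median rho was 0.02, beside 0.04 over all genes.

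Markers of other cell types were set beside the results that they could touch. Efnb2 is known from arterial endothelium, and in the cells with 0 of the 3 endothelial genes, 66.3% of all, it was detected in 28.7% (22.5% to 35.6%), with a median rho with Acta2 of 0.31 and positive values in 6 of 7 series. Epha7 was negative with Acta2 in all 7 series among the same cells, at a median of -0.16. In the cells with 0 of 7 cardiomyocyte genes, 62.2% of all, Efnb2 was positive with Acta2 in all 7 series at a median of 0.33, and Epha7 was negative in 6 of 7 at a median of -0.12.

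Cells with glial markers were few. A total of 16 cells held at least 3 of 9 glial genes, 8 in series 1 and 8 in series 2. Efnb1 was detected in 9 of them (29.9% to 80.2%) and in 20% (14.9% to 25.98%) of the cells with 0 glial genes, which were 73.1% of all. Ephb2 was detected in 4 of 16 (7.27% to 52.4%) against 4.65% (2.25% to 8.39%), with intervals that overlapped slightly. Efnb2 was detected in 2 of 16 (1.55% to 38.3%) against 34.9% (28.5% to 41.7%), and these intervals overlapped too. Within series 1, Efnb1 was detected in 6 of the 8 glial-marker cells (34.9% to 96.8%) and 20% of the other 50 cells (10.0% to 33.7%). Within series 2 it was in 3 of 8 (8.52% to 75.5%) and 32.5% of the other 40 (18.6% to 49.1%), so the higher share was seen clearly in series 1 alone. Ephb2 was in 4 of 8 glial-marker cells of series 2 (15.7% to 84.3%) and 4 of its other 40 (2.79% to 23.7%), and in series 1 in 0 of 8 (0% to 36.9%) and 4 of 50 (2.22% to 19.2%). In the cells with 0 glial genes Efnb2 was positive with Acta2 in all 7 series, at a median of 0.28.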

How the data were processed

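Single-cell libraries were made with the SMARTer v4 and Nextera XT kits and sequenced as read pairs, per the labels' protocols. The deposited raw table holds counts of reads per gene (15124 genes, 294 cells). The second deposited table holds a depth-corrected score (14051 genes), whole numbers that sum to between 1110845 and 1216916 per cell, and was used as an alternative. The submitters' processing notes name HISAT2 2.1.0, featureCounts, Seurat and the build mm10 with no role or order, and the annotation counted against is not given in the sources used here. Each column of the table was tied to its cell through the name in the header. Gene positions and merged exon lengths come from GENCODE M21 on GRCm38, where none of the 8 genes shares exon bases with another gene, and all 8 were matched by symbol to RefSeq windows of GRCm38.p6.

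From the counts, CPM, detection shares with exact Clopper-Pearson 95% intervals, co-detection against the product within name series, and Spearman correlations within each name series were computed with Python 3.11.15, numpy 2.4.6, scipy 1.17.1, pandas 2.3.3 and matplotlib 3.10.9. The correlation step was run on simulated data with strong planted relations, modelled on genes detected in at least 30% of cells. All 100 planted positive and 100 planted negative genes were found, and 70 of 4222 independent genes had 1 sign in all 7 series. Weak relations and rarer genes were not covered. Thinned cells were drawn at 250000 reads, which left out 25 cells. No p-values were computed, since cells are not replicates and the 294 cells form 1 group. Genes named are the 8, Acta2, the other Eph and ephrin genes, the 5 most widespread of a signalling list, and the 5 most similar genes of each gene in at least 20% of cells, with the 8 readout genes Mki67, Dcn, Twist1, Sox9, Pdgfra, Postn, Tagln and Cnn1. Kalrn and the marker genes given by name fall outside this rule and were chosen after their values were seen. The 8 genes, the lists and the marker sets were chosen with earlier results of these data known. Precision is limited by 34 to 58 cells per name series.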

Additional observations from a re-analysis of the deposited data

How the results depend on the processing

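The detection threshold moved the shares. In the deposited depth-corrected table a gene was counted at a score of 1 or more, not at 10 CPM. Its shares therefore cannot separate the table from the threshold. The share of cells with a receptor and a ligand was 59.2% at 10 CPM, 78.2% at 1 read, 29.3% at 100 CPM and 78.9% in the deposited depth-corrected table. The median share over the 8 genes was 26.4%, and under the same 3 choices 41.7%, 9.86% and 42.5%. Pairs above the product numbered 18 of 28, and 11 at 100 CPM. The number of genes with 1 sign against Acta2 was 2, and 1 under partial correlation given total reads and genes detected, because series 4 gave 0.01 for Epha7. The median correlation of Efnb1 with Acta2 (-0.03) was 0.034 in cells of at least 300000 reads and ran from -0.054 to 0.0022 with 1 series left out (0.0022 without series 2, 4 or 5). That of Ephb2 (-0.0093) ran from -0.036 to 0.0027 (0.0027 without series 4, 5 or 7), so neither kept a direction.

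Leaving out 1 name series at a time gave 56.2% to 61.8% of cells with receptor and ligand, median shares of 25% to 27.5%, 17 to 19 pairs above the product, 4 to 5 genes varying between series and 2 to 3 with 1 sign against Acta2, where Efna5 joined without series 4 and Epha4 without series 3. Cells with Epha7 and no Efnb2 reached 100 CPM of Acta2 in 47.7% and, without series 1, in 37.5%. Epha7 with Efnb2 differed from its product by -2.91 points, by -1.36 at detection of 1 read and by -0.43 in the depth-corrected table at a score of 1 or more. No paired analysis was possible because all cells form 1 group. The split by Epha7 and Efnb2, the leaving out of series 1 in it and the leaving out of the look-alike cells were chosen after seeing the data. In the shallowest cell, with 34046 reads, 1 read already exceeds 10 CPM.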

Other observations

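The raw table holds 12 further Eph and ephrin genes, and 3 of them were about as widespread as the genes described above. Ephb4, the receptor that pairs with ephrin-B2 between veins and arteries, was detected in 37.4% of cells (31.9% to 43.2%), more than Ephb2 and Ephb3. Its pooled level ran from 24.8 CPM in series 1 to 76.4 CPM in series 5, and its highest cell had 1059 CPM. Efnb2 and Ephb4 were found together in 12.9% of cells (9.31% to 17.3%), where the product of their shares within series gave 12.1%. The ligand Efna2 was detected in 25.2% of cells, from 5.88% in series 6 to 38.6% in series 7. Efna4 was detected in 21.4%, and 10.5% of its exon bases overlap the antisense gene 4731419I09Rik, so its reads cannot be told apart there without strand.

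The remaining 9 genes were rarer. Efna1 was detected in 11.6%, Epha1 in 9.52%, Ephb6 in 7.48% and Epha2 in 4.76% of cells. Efnb3, Epha5, Epha6, Efna3 and Ephb1 were detected in between 0.68% and 3.74%. Of the 12, 7 had a value against Acta2 in all 7 name series and none of these 7 kept 1 direction, and Epha5, Epha6, Ephb1, Efna3 and Efnb3 had reads in too few series to be counted. Ephb4 was positive in 4 of 7 with a median rho of 0.07. Efna2 and Efna4, the pair furthest above its product among the pairs with Ephb4, Efna2 or Efna4, were found together in 8.50% of cells (5.58% to 12.3%), and the product of 5.79% lay inside this interval.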
